A study of Homo sapiens with 15 samples.

Results

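Liver X receptors (LXRs) are nuclear receptors that bind oxysterols, pair with retinoid X receptors (RXRs) and switch on genes that move cholesterol out of the cell. They are best known from macrophages, where they raise the cholesterol pumps ABCA1 and ABCG1, the apolipoproteins that accept the exported lipid, and MYLIP, a ubiquitin ligase. When sterols are scarce, the transcription factor SREBP2 works in the opposite sense and raises sterol synthesis. The 10 genes described here are the receptors NR1H3 (LXR alpha) and NR1H2 (LXR beta), the enzyme CYP27A1, which makes the LXR ligand 27-hydroxycholesterol, and the LXR-linked genes ABCA1, ABCG1, MYLIP, APOE, APOC1, LPCAT3 and PLTP. They were picked by symbol from a table of 20375 genes, with their levels in cytarabine-treated against control cells in view. Differences from control are therefore given as a description, without a test. The same cytarabine libraries enter the tests of FL-Fc-DM1 against cytarabine and of cytarabine dose, so those p-values are not independent of this choice.

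Poly(A) RNA was sequenced from Molm-13 cells, a human acute myeloid leukemia line with an internal tandem duplication in FLT3, in 15 libraries, 3 in each of 5 groups. Control cells grew for 4 days without drug. A pair of groups received cytarabine, a chain-terminating analog of cytidine, at 0.5 or 1 µM for all 4 days. The other pair received cytarabine at 0.5 or 1 µM for 3 days and then FL-Fc-DM1 at 1 nM for 24 hours, with cytarabine withdrawn. The effect of giving FL-Fc-DM1 and the effect of withdrawing cytarabine therefore cannot be told apart, and the labels neither spell out what FL-Fc-DM1 is made of nor include cells withdrawn from cytarabine alone. THP-1 is the line given in the treatment protocol of the FL-Fc-DM1 samples, but Molm-13 is the one in all titles and in the design text. All groups share 1 cell line. Whether replicates are separate cultures is not stated, so p-values measure the spread between these libraries, which may be technical.

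Libraries held between 10.9 and 16.97 M counts. Levels below are CPM (counts scaled to library size) unless TPM, which also corrects for gene length, is named. FLT3 was present in every group, at 395 ± 8.55 CPM in control cells (SD, n = 3). Of 14 monocyte and macrophage markers, 6 averaged at least 1 CPM in control cells and 9 to 13 in the treated groups. Their summed level ran from 485 to 510.0 CPM in control libraries and from 9114 to 9630 and 7164 to 7360 CPM after 0.5 and 1 µM cytarabine. It reached 15965 to 16733 and 14107 to 14547 CPM in the corresponding FL-Fc-DM1 libraries, mostly as lysozyme (LYZ). Markers of hepatocytes, the main apolipoprotein source of the body, summed to at most 3.76 CPM in any library, and APOB, TTR and FGB had no counts.

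The sequences shown here are the bases just upstream of the annotated start of 3 of the genes, because their levels followed different patterns below. They come from the RefSeq promoter table (GRCh38.p14), which has windows of 300 bases for 9 of the 10 genes. LXR elements are a pair of AGGTCA motifs in the same direction spaced by 4 bases, and each window was searched on both strands with up to 2 of the 12 fixed letters different. One member window of 15 held a match, that of ABCA1, from 69 to 54 bases before the start on the reverse strand, with 2 letters different. Of all 35116 windows in the table, 2.34% held such a match, and 0.0199% held an exact one. A single AGGTCA, found in 13.8% of all windows, stood in 1 of the 4 NR1H3 windows, 140 bases before its start, and in no window of the other members. Capitals mark the matched AGGTCA motifs in the ABCA1 and NR1H3 stretches, each printed 5′ to 3′ on the gene's own strand, and the APOE stretch held none. These are letter matches and were not tested for binding.
ABCA1, chr9:104928156-104928305, minus strand: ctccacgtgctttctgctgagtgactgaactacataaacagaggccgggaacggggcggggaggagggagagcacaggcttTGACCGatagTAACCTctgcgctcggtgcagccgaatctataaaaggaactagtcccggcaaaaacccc
NR1H3, chr11:47248150-47248299, plus strand: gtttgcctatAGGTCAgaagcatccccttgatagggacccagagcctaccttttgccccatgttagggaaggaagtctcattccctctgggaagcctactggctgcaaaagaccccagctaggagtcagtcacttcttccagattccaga
APOE, chr19:44905646-44905795, plus strand: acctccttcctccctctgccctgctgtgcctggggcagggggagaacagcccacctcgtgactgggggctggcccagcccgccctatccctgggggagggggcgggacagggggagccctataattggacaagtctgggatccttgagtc

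Cytarabine-treated cells held more RNA of most of these genes than control cells, and the difference ranged from less than 2-fold to over 100-fold. Of the 10 genes, 9 passed the filter on low counts and ABCG1 did not. At both doses 6 of the 9 were at least 2-fold higher and 0 were at least 2-fold lower, where 15.6% and 16.7% of all 12355 genes tested were at least 2-fold higher after 0.5 and 1 µM and 6.70% and 7.93% at least 2-fold lower. Since the genes were chosen on this difference, nothing is read from these counts. Their median log2 difference was 2.18 and 2.29, beside 0.03 over all genes at either dose. In bulk RNA, more cells that express a gene and more RNA per cell cannot be told apart. The same holds for fewer such cells and less RNA per cell where a level falls.

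**Figure D1:**
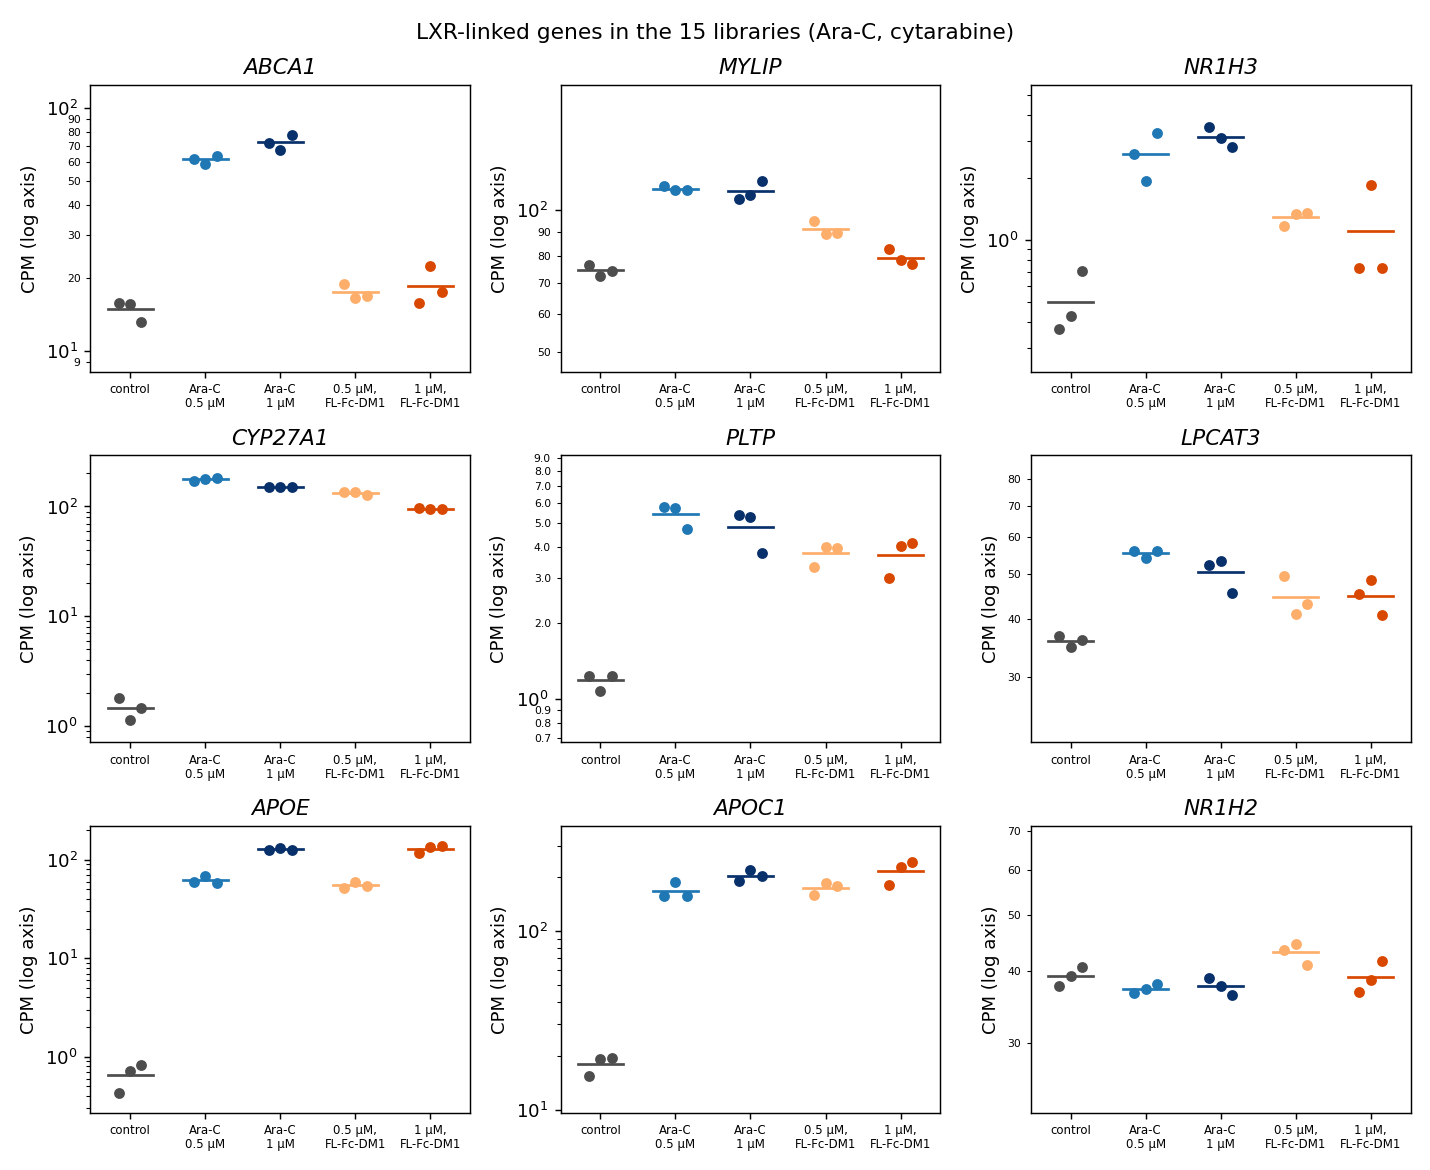
Level of each gene in the 15 libraries, in CPM on log axes that differ between panels; points are libraries, bars are group means (n = 3), and Ara-C is cytarabine. ABCA1 is near its control level in both FL-Fc-DM1 groups (15.8 to 22.3 CPM), while APOE and APOC1 stay near their cytarabine levels and NR1H2 lies between 36.4 and 44.6 CPM in every library.

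The receptors differed from each other in level and in pattern. NR1H2, the broadly expressed LXR beta, stood at 37.8, 39.3 and 40.6 CPM in control libraries and between 36.4 and 39.0 CPM in the 6 cytarabine libraries, so the groups overlapped. NR1H3, the LXR alpha of macrophages, liver and fat, was at 0.370, 0.430 and 0.705 CPM in control libraries. It read 2.59, 1.92 and 3.28 CPM after 0.5 µM cytarabine and 3.496, 3.11 and 2.79 CPM after 1 µM. Every cytarabine library was above every control library, by 5.05- and 6.11-fold in the fit, but NR1H3 passed the filter through the treated groups alone and rests on 24 counts summed over the control libraries. Per length, NR1H3 was at 0.0123 ± 0.00587 of the NR1H2 TPM in control cells, and at 0.0690 ± 0.0214 and 0.107 ± 0.0120 after 0.5 and 1 µM cytarabine (SD, n = 3).

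NR1H3 fell with FL-Fc-DM1 in place of cytarabine. Its libraries read 1.17, 1.33 and 1.35 CPM after 0.5 µM pretreatment and 0.733, 1.84 and 0.735 CPM after 1 µM, all below the cytarabine libraries of the matching dose. The log2 fold change was -1.01 ± 0.352 (SE; adjusted p = 0.0218, edgeR quasi-likelihood test with Benjamini-Hochberg adjustment over 12355 genes) at 0.5 µM and -1.49 ± 0.361 (adjusted p = 0.00141) at 1 µM. The FL-Fc-DM1 libraries at 1 µM held 37 counts in sum. Only 1 of these 3 reached the filter's cutoff, against 3 of 3 with cytarabine, so between these groups NR1H3 passed through the cytarabine side. The call at 0.5 µM was lost without any 1 of 5 libraries of the groups compared, cytarabine replicates 1 and 3 and FL-Fc-DM1 replicates 1, 2 and 3 (adjusted p from 0.0542 to 0.125). NR1H2 rose by 0.21 ± 0.064 on the log2 scale at 0.5 µM (adjusted p = 0.0106), from 36.7, 37.3 and 38.0 to 43.6, 44.6 and 41.1 CPM. At 1 µM it changed by 0.05 (95% interval -0.09 to 0.18; adjusted p = 0.577). The NR1H3 to NR1H2 ratio of TPM was 0.0302 ± 0.00535 and 0.0356 ± 0.0159 in the FL-Fc-DM1 groups. NR1H3 shares 189 of its 4533 exon bases with ACP2, a lysosomal phosphatase gene on the opposite strand. ACP2 changed by -0.60 and -0.89 (adjusted p = 0.00319 and 0.000101) in the same comparisons, and since no source states whether counting used strand, its part in the NR1H3 change was not tested.

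ABCA1, which loads cholesterol and phospholipid onto apolipoprotein A-I, had the largest fall among the 9 genes. Its control libraries read 15.7, 15.7 and 13.2 CPM. They were followed by 61.9, 58.7 and 63.8 CPM after 0.5 µM cytarabine and by 71.9, 67.3 and 77.8 CPM after 1 µM, 4.15- and 4.88-fold above control in the fit. With FL-Fc-DM1 in place of cytarabine the libraries read 18.9, 16.5 and 16.9 CPM after 0.5 µM and 15.8, 22.3 and 17.5 CPM after 1 µM. These lie below every cytarabine library and above every control library. The fall was 3.53-fold at 0.5 µM (log2 fold change -1.82 ± 0.093, adjusted p = 3.67e-14) and 3.89-fold at 1 µM (-1.96 ± 0.093, adjusted p = 7.02e-15), and in both edgeR tests every library of one group was below every library of the other. Against control, the FL-Fc-DM1 groups were 1.17- and 1.26-fold higher, compared by description as above. Per length ABCA1 was not an abundant transcript at any time, at 2.77 ± 0.302 TPM in control cells and at most 13.2 ± 1.05 TPM after 1 µM cytarabine.

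MYLIP followed ABCA1 at a smaller scale. Control libraries read 76.7, 72.5 and 74.3 CPM, and the cytarabine groups averaged 111 ± 1.19 and 109.8 ± 5.24 CPM (SD, n = 3). After FL-Fc-DM1 the libraries read 95.0, 89.2 and 89.6 CPM at 0.5 µM pretreatment and 82.8, 78.3 and 76.9 CPM at 1 µM. MYLIP fell by 0.29 ± 0.047 (adjusted p = 1.82e-05) and by 0.47 ± 0.048 (adjusted p = 1.34e-08) on the log2 scale in edgeR, with no overlap between groups. The ABCA1 to MYLIP ratio of TPM, a measure of how unequal these changes were, was 0.0618 ± 0.00578 in control cells. Under cytarabine it was 0.164 ± 0.0104 and 0.202 ± 0.00865, and with FL-Fc-DM1 0.0578 ± 0.00439 and 0.0713 ± 0.0120.

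ABCG1, the partner pump that hands cholesterol to HDL, was close to undetected. Summed over the 3 libraries of a group it had 2 counts in control cells, 5 and 4 after 0.5 and 1 µM cytarabine, 1 after 0.5 µM with FL-Fc-DM1 and 0 after 1 µM with FL-Fc-DM1. The count of 5 corresponds to 0.126 CPM (exact Poisson 95% interval 0.0410 to 0.295, counting error only), and the count of 0 has an upper bound of 0.111 CPM by the same interval, or 0.0903 CPM by the limit of 3 counts over the group. ABCG1 did not pass the filter, so differences between groups were not tested for it.

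CYP27A1, a mitochondrial sterol hydroxylase, showed one of the 2 largest differences from control among the 9 genes. It stood at 1.79, 1.15 and 1.47 CPM in control libraries, at 170.2, 178 and 182 CPM after 0.5 µM cytarabine and at 151, 152 and 149.9 CPM after 1 µM. With FL-Fc-DM1 it was at 136, 134 and 129 CPM and at 96.4, 94.9 and 94.7 CPM. The 5 groups do not overlap and run, from high to low, cytarabine 0.5 µM, cytarabine 1 µM, FL-Fc-DM1 after 0.5 µM, FL-Fc-DM1 after 1 µM and control. The fall with FL-Fc-DM1 was 0.41 ± 0.041 on the log2 scale at 0.5 µM (adjusted p = 9.5e-09) and 0.66 ± 0.044 at 1 µM (adjusted p = 4.25e-12) in edgeR. CYP27A1 also fell between the doses, by 0.23 ± 0.041 (adjusted p = 0.000207) in the cytarabine groups and by 0.48 ± 0.044 (adjusted p = 7.73e-09) in the FL-Fc-DM1 groups. It remained 88.9- and 63.9-fold above control in the FL-Fc-DM1 groups, as a description.

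APOE and APOC1, neighbouring genes whose proteins ride on lipoproteins and which share an LXR-responsive enhancer in macrophages, had the smallest differences between FL-Fc-DM1 and cytarabine at 1 µM among the LXR-linked genes tested. APOE read 0.432, 0.716 and 0.823 CPM in control libraries, 59.6, 67.7 and 58.3 CPM after 0.5 µM cytarabine and 126, 131 and 127 CPM after 1 µM. Its control level rests on 31 counts in sum. Only 1 of 3 control libraries reached the filter's cutoff, so APOE passed through the treated groups. The FL-Fc-DM1 libraries were at 51.9, 59.2 and 53.7 CPM and at 118, 134 and 138 CPM. The values overlap those of the cytarabine group at each dose and do not overlap between doses. APOC1 stood at 15.4, 19.2 and 19.5 CPM in control libraries, 157, 188 and 157 CPM after 0.5 µM and 191, 218 and 202 CPM after 1 µM cytarabine. Its FL-Fc-DM1 libraries read 158, 186 and 179 CPM and 181, 228 and 241 CPM, again overlapping the matching cytarabine group.

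Set against cytarabine, FL-Fc-DM1 changed APOE by 0.02 at 1 µM (log2; 95% interval -0.10 to 0.15; adjusted p = 0.766, edgeR) and APOC1 by 0.06 and 0.09 at 0.5 and 1 µM (intervals -0.11 to 0.23 and -0.07 to 0.26; adjusted p = 0.571 and 0.368). At 0.5 µM APOE fell by 0.17 ± 0.069 (adjusted p = 0.0446), a call that was lost in DESeq2 (adjusted p = 0.0660), with DESeq2 size factors (0.0580) and without any 1 of 8 libraries (adjusted p up to 0.363). Without cytarabine 0.5 µM replicate 2, the highest of its group, the change was -0.09. For APOC1 the 1 µM value was past the threshold without FL-Fc-DM1 replicate 1 (0.21, adjusted p = 0.0197). APOE rose with dose, 2.07-fold between the cytarabine groups (log2 1.05 ± 0.063, adjusted p = 4.71e-12) and 2.37-fold between the FL-Fc-DM1 groups (1.25 ± 0.065, adjusted p = 1.3e-13). APOC1 rose by 0.28 ± 0.081 (adjusted p = 0.0136) and 0.31 ± 0.082 (adjusted p = 0.00485). The first of these was lost without cytarabine 0.5 µM replicate 1 or 3 or 1 µM replicate 2 (adjusted p from 0.0745 to 0.0805) and in DESeq2 (adjusted p = 0.0838), and the other without FL-Fc-DM1 0.5 µM replicate 1 (adjusted p = 0.0558).

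Per length, APOC1 was the most abundant of the 10 genes in every group, at 69.8 ± 11.8 TPM in control cells and 817 ± 119 TPM after 1 µM with FL-Fc-DM1. APOE was 0.0157 ± 0.00316 of APOC1 in TPM in control cells, where it ranked eighth of the 10 genes. The ratio was 0.161 ± 0.00854 and 0.268 ± 0.0163 under 0.5 and 1 µM cytarabine, against 0.137 ± 0.00566 and 0.258 ± 0.0240 with FL-Fc-DM1. The 2 genes thus did not move by equal factors, and the ratio followed the pretreatment dose, with no overlap between the doses. At 0.5 µM it was also lower with FL-Fc-DM1 (0.131 to 0.141) than with cytarabine (0.151 to 0.167), while the 1 µM groups overlapped. APOC1 shares 532 of its 1231 exon bases with an overlapping transcript of the same strand (AC011481.3) and has a pseudogene copy, so its counts are uncertain to that extent.

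**Figure D2:**
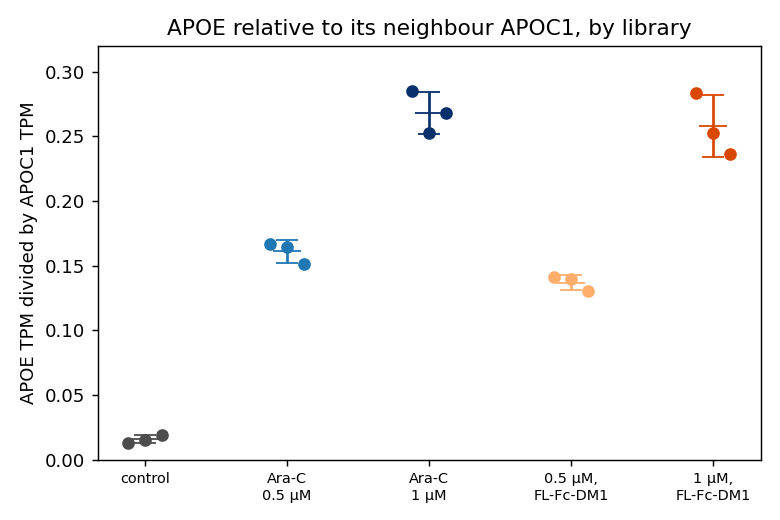
Ratio of APOE to APOC1 in TPM for each library (points), with the group mean and SD (n = 3); the axis starts at 0 and Ara-C is cytarabine. Both 1 µM groups lie between 0.237 and 0.285, and control libraries at or below 0.0192. At 0.5 µM the cytarabine libraries lie between 0.151 and 0.167 and the FL-Fc-DM1 libraries between 0.131 and 0.141.

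LPCAT3, which puts polyunsaturated chains into phospholipids, and PLTP, which transfers phospholipids between lipoproteins, both had lower values with FL-Fc-DM1. LPCAT3 read 36.7, 34.8 and 36.1 CPM in control libraries and averaged 55.3 ± 1.15 and 50.3 ± 4.15 CPM after 0.5 and 1 µM cytarabine (SD, n = 3). It fell at 0.5 µM, to 49.5, 40.9 and 43.0 CPM (log2 fold change -0.32 ± 0.073, adjusted p = 0.00103, edgeR). At 1 µM the libraries read 45.3, 48.5 and 40.8 CPM, overlapped the cytarabine group and gave -0.17 (95% interval -0.32 to -0.01; adjusted p = 0.0757), which passed without any 1 of 3 libraries, among them 1 µM cytarabine replicate 3 (adjusted p = 0.0193). LPCAT3 shares 3100 of its 4725 exon bases with EMG1 on the opposite strand, and its counts were not whole in 14 libraries. EMG1 moved the other way, with 39.8 ± 2.39 CPM in control cells, 21.8 ± 2.86 after 0.5 µM cytarabine and 30.0 ± 2.97 CPM after FL-Fc-DM1, so the split of reads between them was not tested.

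PLTP was at 1.23, 1.07 and 1.23 CPM in control libraries, 5.78, 5.69 and 4.73 CPM after 0.5 µM cytarabine and 5.34, 5.27 and 3.80 CPM after 1 µM. The FL-Fc-DM1 libraries read 3.34, 3.99 and 3.98 CPM and 3.02, 4.03 and 4.13 CPM, above every control library. The change at 0.5 µM was -0.51 ± 0.206 (log2; adjusted p = 0.0444, edgeR), a call lost without any 1 of 5 libraries of the groups compared (cytarabine replicates 1 and 2 and FL-Fc-DM1 replicates 1, 2 and 3, adjusted p up to 0.159) and in DESeq2 (adjusted p = 0.0776). At 1 µM it was -0.37 (95% interval -0.80 to 0.07; adjusted p = 0.162). PLTP shares 200 of its 2541 exon bases with CTSA on the opposite strand, and its counts were not whole in 8 libraries. CTSA stood at 50.8 ± 1.85 CPM in control cells, 224 ± 5.80 after 0.5 µM cytarabine and 264 ± 5.32 CPM after FL-Fc-DM1.

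**Figure D3:**
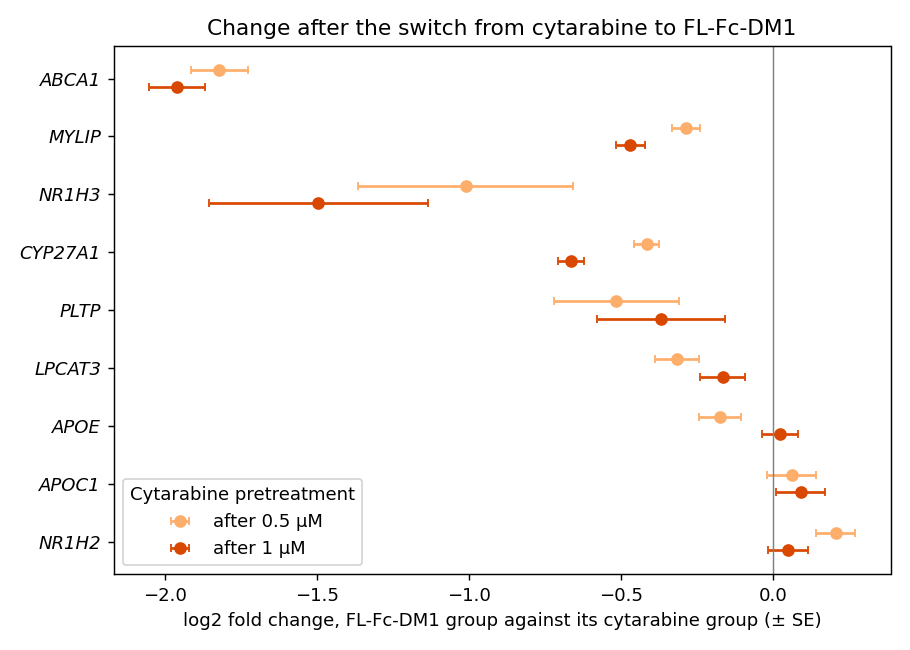
Log2 fold change of each gene, FL-Fc-DM1 group against the cytarabine group of the same dose, with the SE from the fit (3 libraries a group). ABCA1 and NR1H3 lie farthest left (-1.82 and -1.96, -1.01 and -1.49), CYP27A1 and MYLIP are lower at both doses, and APOC1 and NR1H2 lie to the right of 0.

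Counted over the 9 genes that passed the filter, FL-Fc-DM1 against cytarabine gave 7 lower and 1 higher at 0.5 µM, beside 22.8% of all genes lower and 22.0% higher. Without cytarabine replicate 1, or FL-Fc-DM1 replicate 1 or 3, of the 0.5 µM groups, 4 were lower. At 1 µM it gave 4 lower (ABCA1, CYP27A1, MYLIP and NR1H3) and 0 higher, beside 22.2% and 23.5% of all genes. Of these 4, NR1H3 passed the filter through the cytarabine side, where it is high, so its call is no independent support for this count. The 0 became 1 (APOC1) without the filter or without FL-Fc-DM1 replicate 1. It was 0 in DESeq2 and limma and, in edgeR, also at an unadjusted p under 0.05. The median log2 fold change of the 9 genes was -0.32 and -0.37, beside -0.02 and -0.0036 over all genes. The cytarabine libraries in these comparisons are also the ones on which the genes were chosen. Between the cytarabine doses 3 genes were higher at 1 µM (APOE, APOC1 and ABCA1) and 1 lower (CYP27A1), beside 9.08% and 10.3% of all genes. ABCA1 was 0.24 ± 0.078 higher on the log2 scale (adjusted p = 0.0336), a call lost without any 1 of 5 of the 6 libraries compared (adjusted p up to 0.163).

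Between the FL-Fc-DM1 groups, APOE and APOC1 were higher after 1 µM than after 0.5 µM and CYP27A1 and MYLIP lower, beside 14.3% of all genes higher and 14.0% lower. MYLIP fell by 0.20 ± 0.049 (log2, adjusted p = 0.00286, edgeR). Its call was lost with limma on log2(TPM + 1) and log2(TPM + 0.1) (adjusted p = 0.0844 and 0.0856). ABCA1 differed by 0.10 (95% interval -0.13 to 0.32; adjusted p = 0.561). The change with FL-Fc-DM1 differed between doses for CYP27A1 alone among the 9 genes (-0.25 ± 0.060, adjusted p = 0.0189 in edgeR), beside 0.931% of all genes lower and 2.14% higher in that test. That call was lost with limma on log2(TPM + 1) and log2(TPM + 0.1) (adjusted p = 0.135 and 0.171) and without cytarabine 0.5 µM replicate 1 (adjusted p = 0.0685). For ABCA1 the difference between doses was -0.14 (interval -0.42 to 0.14; adjusted p = 0.691), and for APOE 0.20 (interval 0.01 to 0.38; adjusted p = 0.297).

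**Figure D4:**
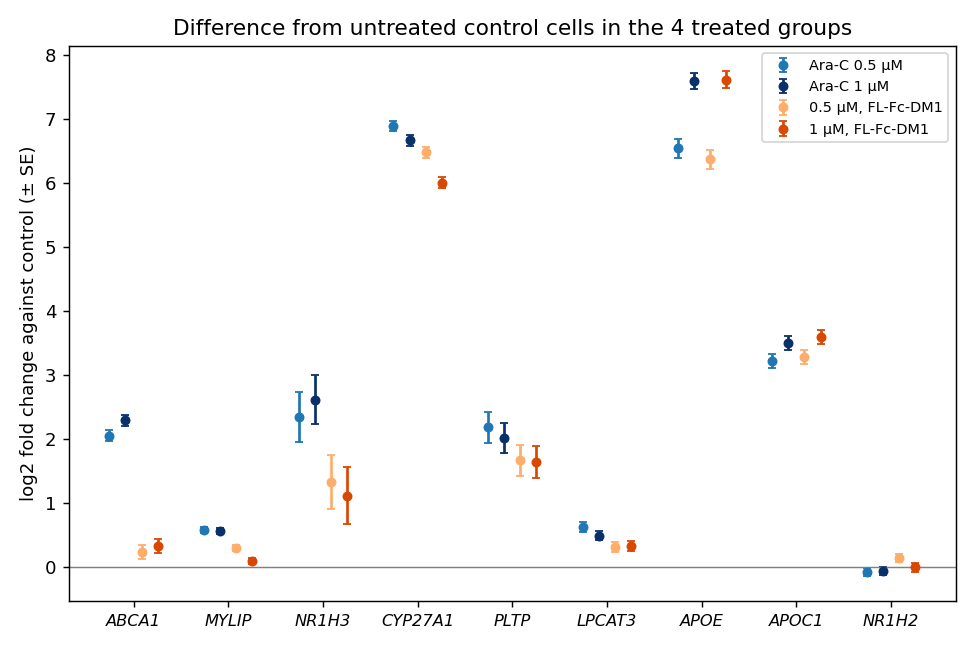
Log2 fold change of each gene against control cells in the 4 treated groups, with the SE from the fit (3 libraries a group), shown as a description since the genes were chosen on this difference. CYP27A1 and APOE are 63.9- to 195-fold above control in every treated group, while ABCA1 and MYLIP in the FL-Fc-DM1 groups are 1.06- to 1.26-fold above it. The APOE control level rests on 31 counts in sum.

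Measured from control, then, the FL-Fc-DM1 groups kept 5 of the 9 genes at least 2-fold higher (APOE, APOC1, CYP27A1, NR1H3 and PLTP) and 0 at least 2-fold lower, where 12.6% and 14.0% of all genes were at least 2-fold higher after 0.5 and 1 µM and 7.11% and 6.83% at least 2-fold lower. ABCA1 was the gene that left the list. NR1H3 stood 2.17-fold above control after 1 µM pretreatment with FL-Fc-DM1, and its log2 difference went from 1.12 to 0.51 when the FL-Fc-DM1 library at 1.84 CPM, replicate 2, was left out, and to 0.93 without control replicate 1.

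The genes whose log2 CPM ran most like that of a member over the 15 libraries were named by Pearson's r, as a description; the libraries form 5 groups, so r follows the group levels. ABCA1 was nearest to RUNX2 (r = 0.981), a transcription factor, with IL2RA (0.975), an interleukin-2 receptor chain, and the succinate receptor SUCNR1 (0.974) close behind. Of 9459 genes, 41 reached r of 0.95 with ABCA1 and 21 with MYLIP. Of 9460 genes, 182 did so with PLTP and 3 with NR1H3, whose nearest was TMEM9 (0.961). NR1H3 had 6 to 55 counts a library, and counting noise at such depth lowers r. APOE and CYP27A1 had 544 and 537 such genes, led by DBNL (0.998), an actin-binding adaptor, and by the choline transporter gene SLC44A1 (0.999). PLTP was nearest to ALAD (0.984), an enzyme of heme synthesis, and MYLIP to ZYG11B (0.974).

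Other genes that LXRs are known to raise went in both directions. Of 18 such genes 12 passed the filter, and after 0.5 µM cytarabine 6 rose and 5 fell, beside 38.0% and 35.2% of all genes. At 1 µM 5 rose and 5 fell, beside 39.3% and 36.6%. After 0.5 µM 6 were at least 2-fold higher and 5 at least 2-fold lower, beside 15.6% and 6.70% of all genes. After 1 µM these were 5 and 5, beside 16.7% and 7.93%. The list medians against control were 0.60 and 0.34 on the log2 scale, beside 0.03 over all genes. TGM2, a transglutaminase, rose from 0.922 ± 0.234 to 24.6 ± 2.43 and 41.8 ± 1.59 CPM, and MERTK, a receptor for engulfing dead cells, from 0.0716 ± 0.124 to 6.79 ± 0.611 and 15.9 ± 0.633 CPM (SD, n = 3). In control cells MERTK lay below the filter's cutoff of 0.768 CPM, so it passed through the treated groups. MLXIPL, a carbohydrate-sensing factor that raises genes of fatty acid synthesis, rose by 2.48 and 2.97 on the log2 scale. SCD, the stearoyl-CoA desaturase, fell from 766 ± 13.1 to 168 ± 6.26 and 134 ± 4.70 CPM, and SREBF1, a regulator of SCD, from 102 ± 2.05 to 41.4 ± 0.605 and 34.1 ± 1.80 CPM. With FL-Fc-DM1, 2 rose and 4 fell at 0.5 µM, beside 22.0% and 22.8% of all genes. At 1 µM 6 rose and 4 fell, beside 23.5% and 22.2%. The list medians were 0.0032 and 0.11. TGM2 fell by 1.52 and 1.05 on the log2 scale, MLXIPL by 2.13 and 1.82, and SREBF1 by 0.57 and 0.53 (adjusted p at most 1.14e-06, edgeR). FASN, the fatty acid synthase, rose by 0.65 and 0.56. MERTK changed by 0.04 and 0.11 (adjusted p = 0.870 and 0.553).

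The sterol synthesis list was the one in which FL-Fc-DM1 called genes in 1 direction at both doses across most of its members. Of 20 genes regulated by SREBP2, 15 rose and 0 fell with FL-Fc-DM1 at each dose, with medians of 0.49 and 0.41 on the log2 scale (edgeR; 0 also fell at an unadjusted p under 0.05). Of all genes, 22.0% and 23.5% rose and 22.8% and 22.2% fell in these comparisons at 0.5 and 1 µM, the shares beside which the FL-Fc-DM1 counts of each list below stand. SQLE, the squalene epoxidase, rose by 0.67 and 0.58, and IDI1, an isomerase of the isoprenoid pathway, by 0.68 and 0.94. Under cytarabine 5 and 3 of the list had risen against control and 9 and 11 had fallen, beside 38.0% and 39.3% of all genes higher and 35.2% and 36.6% lower. Among them were CYP51A1, a demethylase of the pathway, which fell by 0.71 and 1.04, and SREBF2, the gene of SREBP2 itself, which fell by 0.70 and 0.86.

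**Figure D5:**
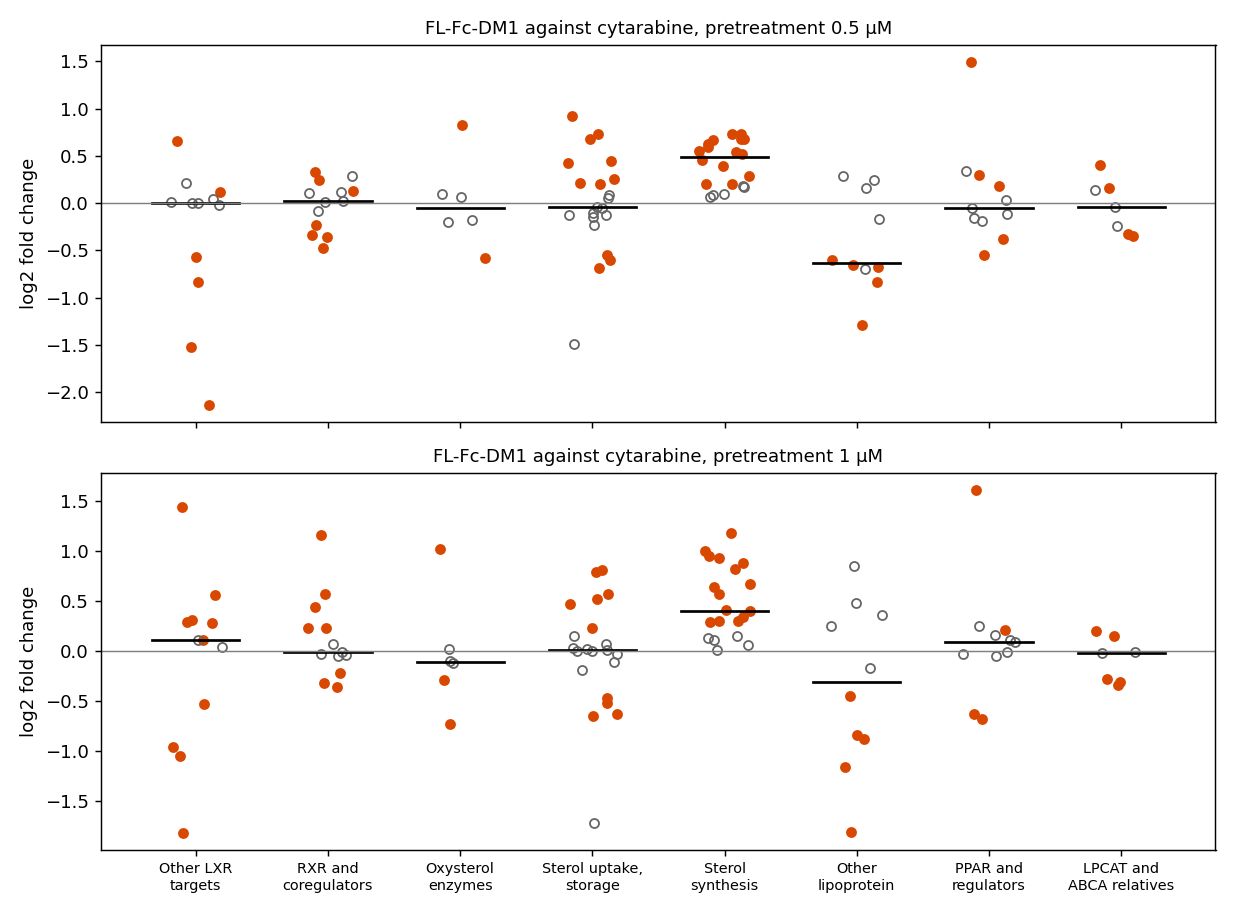
Log2 fold change, FL-Fc-DM1 against cytarabine, of each tested gene in 8 related lists, at 0.5 µM (top) and 1 µM pretreatment (bottom). Filled points passed an adjusted p of 0.05 in edgeR, open points did not, and bars are list medians; the sterol synthesis list has 15 filled points of 20, all above 0, in both panels.

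Genes around the oxysterol supply and the RXR partners were divided. Of 13 genes of oxysterol synthesis and removal 6 passed the filter, and with FL-Fc-DM1 1 rose at each dose while 1 fell at 0.5 µM and 2 at 1 µM. STAR, the mitochondrial sterol carrier, fell by 0.59 and 0.72. The medians were -0.05 and -0.11. HSD3B7 and FDXR, which act on oxysterols and supply electrons to CYP27A1, had risen with 0.5 µM cytarabine by 1.58 ± 0.120 and 1.34 ± 0.089. Against control, 3 of these 6 genes rose and 2 fell after 0.5 µM cytarabine, beside 38.0% and 35.2% of all genes. After 1 µM 2 rose and 3 fell, beside 39.3% and 36.6%. Of 14 RXR and coregulator genes 13 were tested. After cytarabine 2 rose and 7 fell at 0.5 µM, and 3 rose and 9 fell at 1 µM, beside the same shares. With FL-Fc-DM1 3 rose and 4 fell at 0.5 µM, and 5 rose and 3 fell at 1 µM (medians 0.02 and -0.0052). RXRA, a partner of both LXRs, rose by 0.24 ± 0.074 and 0.44 ± 0.070 (adjusted p = 0.00917 and 1.19e-05), and NCOA3, a coactivator, fell by 0.33 and 0.36.

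Sterol uptake and storage, with 21 of 23 genes tested, gave 14 rises and 4 falls after 0.5 µM cytarabine and 13 and 4 after 1 µM, beside 38.0% and 39.3% of all genes higher and 35.2% and 36.6% lower, with CD36, a scavenger receptor, going from 5.51 ± 0.105 to 86.1 ± 7.30 and 76.7 ± 5.46 CPM (SD, n = 3). With FL-Fc-DM1 8 rose and 3 fell at 0.5 µM and 6 and 4 at 1 µM (medians -0.04 and 0.01). LIPA, the lysosomal lipase that frees cholesterol, rose by 0.45 and 0.23. STARD4, a cytosolic sterol carrier, fell by 0.60 and 0.65 to 109 ± 4.68 and 129.6 ± 3.66 CPM. Of 17 other lipoprotein genes 10 were tested, and 5 fell and 0 rose at either dose (medians -0.63 and -0.31; edgeR, 0 rises also at an unadjusted p under 0.05). Of these 5, APOL1, APOL2, APOL3 and APOL6 belong to the interferon-responsive APOL family, and APOL1 fell by 0.68 and 0.88 (adjusted p = 2.37e-05 and 3.64e-07).

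Among 11 tested regulators of macrophage lipid metabolism on a list of 14, 3 rose and 2 fell with FL-Fc-DM1 at 0.5 µM and 2 and 2 at 1 µM (medians -0.05 and 0.09). CEBPB, a transcription factor of myeloid cells, fell by 0.55 and 0.67. PPARG, a receptor that raises NR1H3 in macrophages, changed by -0.11 and -0.03 (adjusted p = 0.404 and 0.833). Relatives of LPCAT3 and ABCA1, 7 tested of 8, gave 2 rises and 2 falls at 0.5 µM and 2 and 3 at 1 µM (medians -0.04 and -0.01). ABCA7, the transporter nearest to ABCA1 in sequence, fell by 0.34 ± 0.050 and 0.28 ± 0.049 (adjusted p = 3.51e-06 and 4.56e-05), from 121 ± 3.87 and 148 ± 2.66 CPM under cytarabine.

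Monocyte and macrophage markers also changed, and more of them rose than fell. With FL-Fc-DM1 8 of 11 tested rose and 2 fell at 0.5 µM, and 6 rose and 2 fell at 1 µM, beside 22.0% and 23.5% of all genes higher and 22.8% and 22.2% lower. LYZ rose by 0.84 ± 0.027 and 1.05 ± 0.027 on the log2 scale (adjusted p = 4.38e-18 and 3.32e-20), and ITGAM, the integrin CD11b, fell by 0.93 and 1.15. FLT3 went from 587 ± 9.66 and 540.5 ± 7.85 CPM under cytarabine to 386 ± 4.96 and 323 ± 11.7 CPM (SD, n = 3), in the direction of ABCA1. The part of such a shift in cell state in the changes of the 10 genes was not tested.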

How the data were processed

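RNA-seq of 15 libraries was analysed. Per the submitters' processing notes, reads went through fastp 0.18.0, HISAT2 and StringTie 1.3.1, and DESeq2 and edgeR are named. No source used here gives the genome build, the counting tool or strand. The deposited table holds estimated counts, of which 9.62 to 11.3% per library are not whole (tolerance 0.01), and the authors' TPM values. Counts were rounded. One edgeR 4.0.16 quasi-likelihood model (R 4.3.3, TMM, 5 groups, filterByExpr with a minimum count of 10) was fitted to 12355 genes, with Benjamini-Hochberg adjusted p under 0.05 as the threshold, after a test on simulated data. CPM use TMM library sizes. Each SE of a log2 fold change is its absolute value divided by the square root of the quasi-likelihood F statistic, and the 95% intervals use that SE. Exact Poisson intervals and floors of 3 counts cover counting error only. DESeq2 1.42.0 and limma 3.58.1, the latter on log2(TPM + 1) and log2(TPM + 0.1), were alternatives. Overlaps between genes come from GENCODE exons. All members were named. From each related list, up to 3 called genes a direction were named, by largest fold against control (at least 5 CPM in a group) or by smallest p elsewhere, and their values in other comparisons may follow; likeness took the 5 highest correlations among genes reaching 10 CPM in a group, of which some are printed. PPARG, LYZ, ITGAM and the genes overlapping members were named after their values were seen. The protein comparison of the receptors was not run. Members and lists were chosen with earlier results of these data known, so calls of list genes against control are not independent of that choice. No library was a duplicate of another. Replicate numbers did not pair libraries: 0 of 30 same-numbered pairs had a correlation of deviations over 0.1. A few genes of the related lists are not reported here.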

Additional observations from a re-analysis of the deposited data

Results flagged for a closer look

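One result among the 10 genes was singled out because it differed between doses by a test of the difference itself. The fall of CYP27A1 with FL-Fc-DM1 was larger after 1 µM than after 0.5 µM cytarabine, by -0.25 ± 0.060 on the log2 scale (SE; adjusted p = 0.0189, edgeR interaction term). All 3 FL-Fc-DM1 libraries were below all 3 cytarabine libraries at each dose. Over the fits that leave out 1 library the difference ran from -0.27 to -0.23, and its adjusted p was 0.0685 without cytarabine 0.5 µM replicate 1. With limma on log2(TPM + 1) and log2(TPM + 0.1) it also missed the threshold (adjusted p = 0.135 and 0.171).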

How the results depend on the processing

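No member change that passed the threshold in edgeR turned its direction under any alternative run, whereas 8 tested differences that had not passed it did, and none of them passed it where turned. Leaving out 1 library at a time, APOE with FL-Fc-DM1 at 1 µM ran from -0.0060 to 0.091, MYLIP and NR1H2 between cytarabine doses from -0.060 to 0.0059 and from -0.011 to 0.039, and the dose difference of APOC1 from -0.062 to 0.14 (log2). Between the FL-Fc-DM1 groups ABCA1 ran from -0.061 to 0.20, NR1H3 from -0.80 to 0.0097, LPCAT3 from -0.054 to 0.081 and PLTP from -0.11 to 0.11. With limma on log2(TPM + 1) and log2(TPM + 0.1), NR1H2 between cytarabine doses was -0.070 and -0.071 and PLTP between FL-Fc-DM1 groups 0.0082 and 0.0088, and NR1H3 between FL-Fc-DM1 groups was 0.0014 with the former. The count of members higher with FL-Fc-DM1 at 1 µM went from 0 to 1 without the low-count filter. With limma on log2(TPM + 1) and log2(TPM + 0.1), members higher between cytarabine doses went from 3 to 1 with either, members lower between the FL-Fc-DM1 groups from 2 to 1, and members with a dose difference from 1 to 0. Over all genes these limma fits gave 716 and 655 higher (1122 in edgeR) and 638 and 611 lower (1268) between cytarabine doses, and 843 and 832 lower (1724) between FL-Fc-DM1 groups. For the dose difference they gave 110 and 107 higher (264 in edgeR) and 32 and 32 lower (115); 154 were higher with only the groups compared and 203 lower without the filter. The cause was not tested.

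Leaving out 1 library at a time, members lower with FL-Fc-DM1 ranged from 4 to 7 at 0.5 µM, and members higher at 1 µM from 0 to 1. Members higher ranged from 1 to 3 between cytarabine doses (1 without cytarabine 0.5 µM replicate 1 or 3) and from 1 to 2 between FL-Fc-DM1 groups. Members with a lower dose difference ranged from 0 to 1. Over all genes the dose difference ranged from 151 to 308 higher (151 and 159 without FL-Fc-DM1 0.5 µM replicate 1 or 2, 175 without cytarabine 0.5 µM replicate 3) and from 82 to 186 lower (186 without FL-Fc-DM1 1 µM replicate 3).

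With the replicate number as a block, PLTP missed the threshold at 0.5 µM (log2 -0.51, adjusted p = 0.0543), which left 6 members lower, and no other member call changed; the numbers did not pair the libraries. Other scalings moved the median of all genes by at most 0.0554 on the log2 scale. Depth limits ABCG1, with at most 5 counts in a group, and NR1H3 in control cells and after 1 µM with FL-Fc-DM1 (24 and 37 counts). The same holds for APOE in control cells (31 counts).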
